A study of Mus musculus with 2 samples.

Results

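The genes described here are 10 members of the Notch pathway, out of 32285 genes in the count tables: the 3 ligands Jag1, Jag2 and Dll4, the 3 receptors Notch1, Notch2 and Notch3, and the 4 target genes Hes1, Hey1, Hey2 and Heyl. They were listed by symbol, for their role in the pathway, and all 10 symbols were in the tables. The question was where in the testis each gene is expressed, and whether its level, above all that of the targets in Sertoli cells, differs where germ cells are few. The data come from testes of PD7 mice, 1 control and 1 Brca1 vKO. Brca1 vKO stands for Brca1 f/- Vasa-Cre, in which a Cre recombinase that acts in germ cells removes the remaining floxed Brca1 allele. The somatic cells of that mouse therefore carry 1 deleted Brca1 allele, and they are not the same as wild-type cells. The exact genotype of the control mouse was not given beyond its being a control.

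Notch signalling passes between cells that touch. A ligand of the Jagged or Delta family on one cell binds a Notch receptor on its neighbour, the receptor is cut, and its intracellular domain enters the nucleus, where it joins the DNA-binding protein RBPJ and turns on genes of the Hes and Hey families. In the testis, germ cells are known to display Jagged ligands to the Notch receptors of Sertoli cells, and Notch signalling in Sertoli cells is known to lower Gdnf, the growth factor that maintains spermatogonial stem cells, and Cyp26b1, an enzyme that degrades retinoic acid. In blood vessels, Dll4 marks endothelial cells and Notch3 marks pericytes, the contractile cells that wrap them.

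Each count is a unique molecular identifier (UMI), that is, 1 captured RNA molecule. There were 5812 control barcodes with 120568700 UMIs and 9456 Brca1 vKO barcodes with 165062097 UMIs, of which 5077 and 8712 were retained as cells, with medians of 16917 and 12970.5 UMIs per cell. More cells had been loaded from Brca1 vKO testes. The libraries shared 21 barcodes, and 3.68% and 3.01% of retained cells were marked as likely doublets. Germ cells, the clusters that scored highest for 5 germ cell markers, among them Ddx4 and Dazl, numbered 1087 control cells (21.4%) and 275 Brca1 vKO cells (3.16%). This total included a shallow cluster of 412 and 56 cells that stayed unnamed, with hemoglobin genes leading. It also included mixed sub-clusters of 103 and 19 and of 70 and 12 cells, in which 36.9% to 84.2% of cells were marked as doublets. Among the germ cells, a sub-cluster rich in Gfra1 and Ret, called Gfra1/Ret-type, held 402 and 181 cells, and one rich in Kit and Stra8, called KIT/STRA8-type, held 169 and 13. The 13 cells also carried Gfra1 at 196 UMIs per 1000000 UMIs (CPM), against 7.29 CPM in the control sub-cluster. The somatic classes held 2001 and 4138 Sertoli-like, 863 and 1997 stromal-like, 552 and 1412 myoid-like, 48 and 68 pericyte-like, 27 and 36 endothelial-like and 46 and 113 Leydig-like cells, each with its own markers. Brca1 itself was at 69.6 CPM in control and 43.6 CPM in Brca1 vKO germ cells, where counts include transcripts that lack the deleted part, and at 29.8 and 25.8 CPM in Sertoli-like cells.

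Levels are UMIs of a gene summed over the cells of a class in a library, per 1000000 UMIs of that sum. Since these are counts near the 3′ end of transcripts, levels are compared within a gene and never between genes. With 1 library per genotype no test between genotypes was possible. Intervals, given in parentheses, are exact at 95% and cover counting error only, so that they say nothing of the spread between mice. A ratio is the Brca1 vKO CPM divided by the control CPM. A gene is said to be past 1.5-fold where it had at least 50 UMIs in both sums together and a ratio of at least 1.5 or at most 0.667. The Notch genes were left out of the genes used for clustering.

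Jag2 was, among the ligands, the one found mainly in germ cells. Of all its UMIs, 84.1% in the control against 40.5% in the Brca1 vKO library lay in germ cells, and 7.96% and 36.1% in the few endothelial-like cells. In the control its levels were 34.0 CPM (22.9 to 48.5) in endothelial-like, 17.6 CPM (14.9 to 20.7) in KIT/STRA8-type and 6.60 CPM (5.49 to 7.87) in Gfra1/Ret-type cells. The intervals of these 3 classes did not overlap, and Jag2 was measured below 1 CPM in the other named classes. In the Brca1 vKO library the order was the same, at 45.4 CPM, 13.1 CPM and 6.90 CPM, but the intervals of both germ sub-clusters overlapped. Stromal-like, myoid-like and pericyte-like cells together held 1 Jag2 UMI in the control against 5 in the Brca1 vKO library.

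Jag1, the other Jagged ligand, was broadly expressed in somatic cells and highest in pericyte-like cells, at 113 CPM (86.0 to 145) in the control against 127 CPM (102 to 157) in the Brca1 vKO library. Leydig-like cells followed with 54.5 and 34.9 CPM and endothelial-like cells with 48.7 and 51.0 CPM, whose intervals overlapped in both libraries. Myoid-like and stromal-like cells were alike within their intervals, between 19.1 and 23.9 CPM. Germ and Sertoli-like cells were lowest. In control Gfra1/Ret-type cells Jag1 was at 7.40 CPM (6.22 to 8.74), above the 4.06 CPM (3.54 to 4.64) of Sertoli-like cells. In the Brca1 vKO library the levels were 4.31 CPM (2.91 to 6.15) and 4.55 CPM (4.14 to 4.98), which overlapped.

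Dll4 was an endothelial gene, since the 27 control endothelial-like cells held 80.1% of its UMIs and the 36 Brca1 vKO ones 78.8%. Its level there was 142 CPM (118 to 169) and 160 CPM (139 to 184), which was 7.55-fold and 26.7-fold above the next class, pericyte-like cells. Those folds rest on 10 and 4 Dll4 UMIs in pericyte-like cells. In the Brca1 vKO library the interval of pericyte-like cells overlapped that of Gfra1/Ret-type cells. Sertoli-like cells held 1 and 10 Dll4 UMIs and stromal-like cells 1 each. The 250 bases that precede the Dll4 transcript start are shown because Dll4 and Notch1 had the largest ratios among the 10 members in Gfra1/Ret-type cells. They come from the RefSeq annotation of GRCm38.p6, on the plus strand at chr2:119325534-119325783, and their first bases overlap an exon of Gm14207 on the other strand.
Dll4: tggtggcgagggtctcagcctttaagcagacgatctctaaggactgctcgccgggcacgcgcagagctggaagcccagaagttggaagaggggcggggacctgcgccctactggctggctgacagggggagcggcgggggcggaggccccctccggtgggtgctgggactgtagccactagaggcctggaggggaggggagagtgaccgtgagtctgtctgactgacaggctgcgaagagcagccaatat

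**Figure D1:**
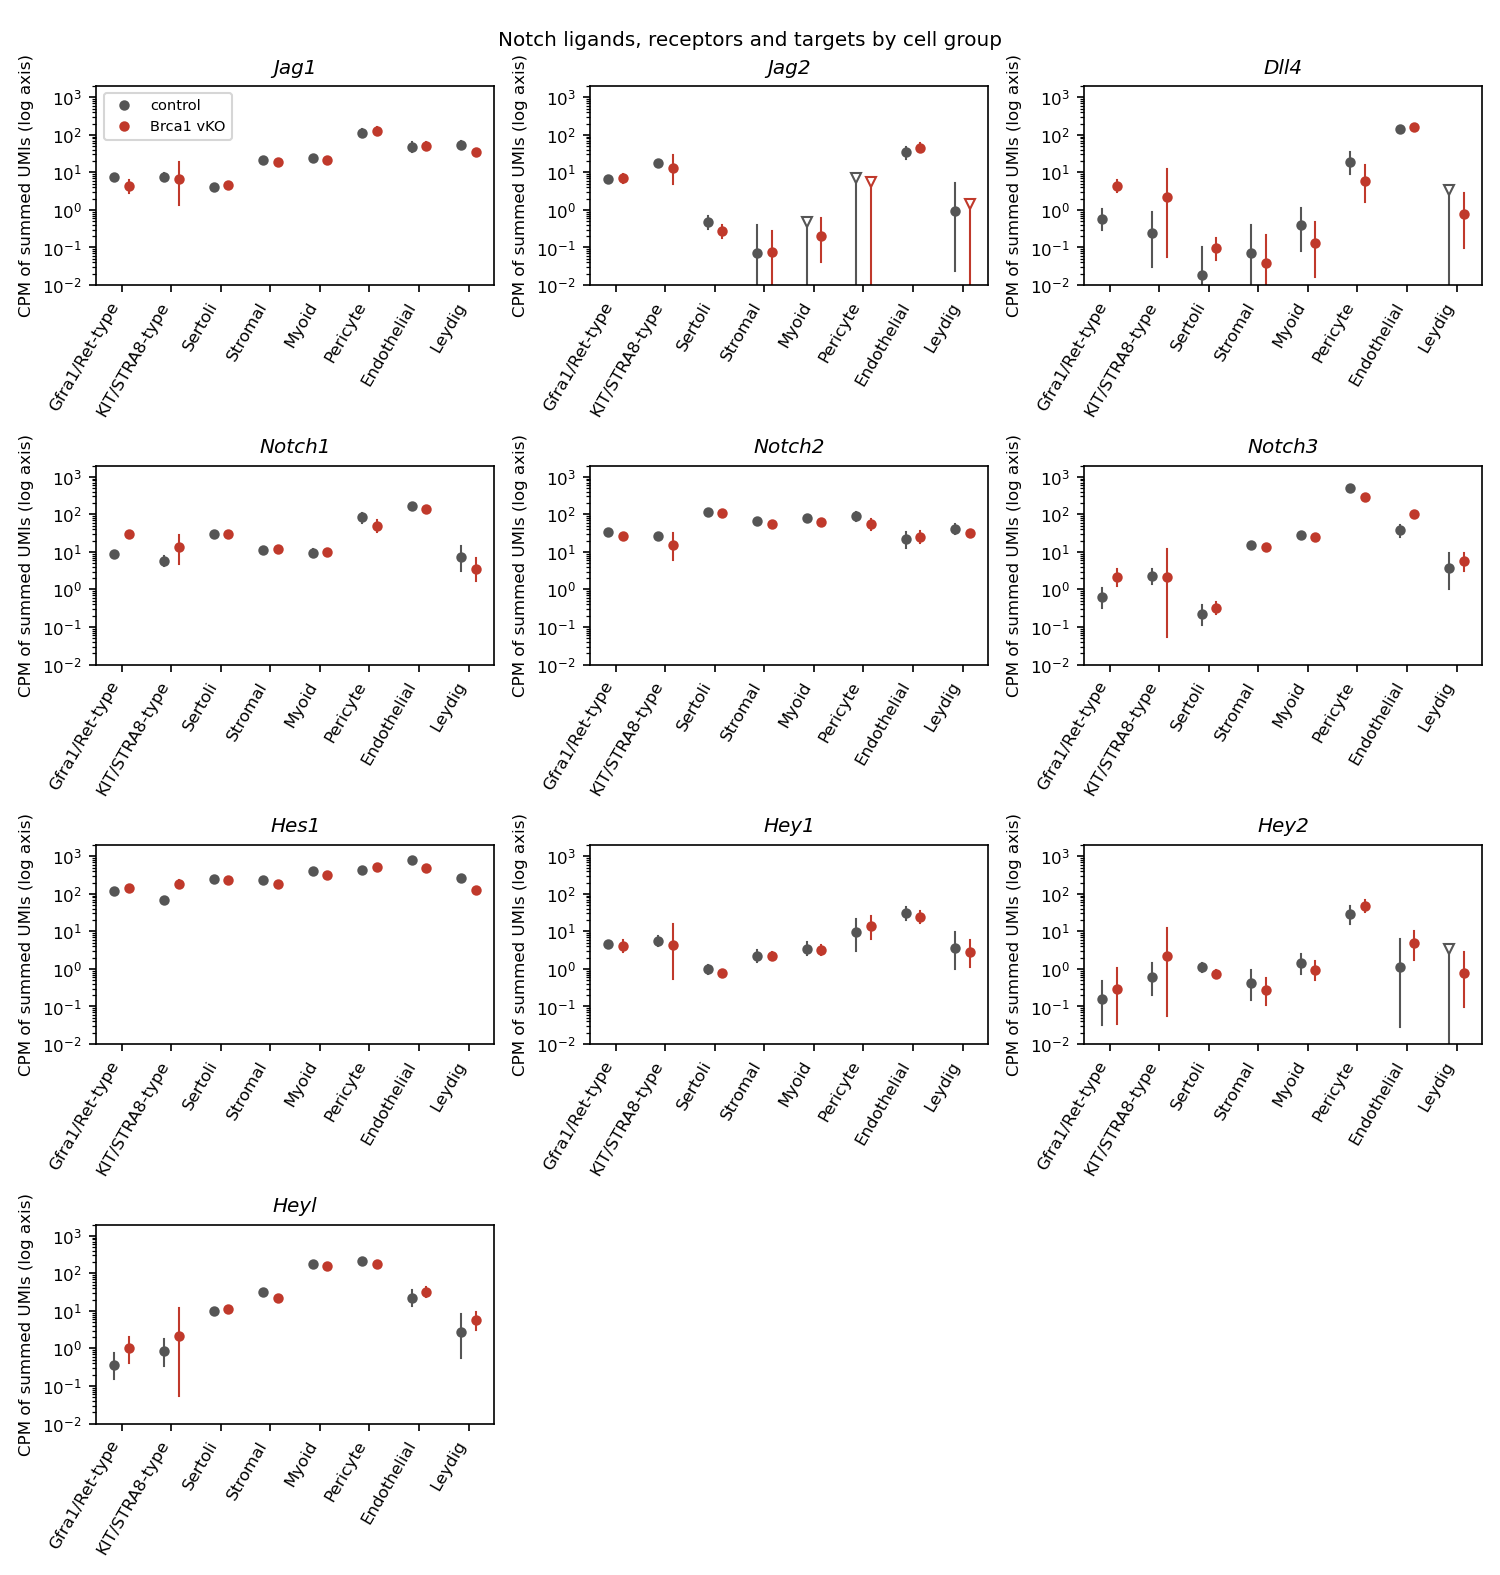
Level of each of the 10 genes by cell class, in CPM of summed UMIs on a log axis, for the control library (grey) and the Brca1 vKO library (red), with lines for exact 95% Poisson intervals and open triangles for the upper limit where no UMI was found. Dll4 stood at 142 and 160 CPM in endothelial-like cells and Notch3 at 511 and 289 CPM in pericyte-like cells, while Notch1 in Gfra1/Ret-type cells stood at 8.57 CPM in the control against 29.9 CPM in the Brca1 vKO library.

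Notch1, a receptor, was highest per UMI in endothelial-like cells, at 163 CPM (138 to 192) and 139 CPM (119 to 161), followed by pericyte-like cells at 82.6 and 49.4 CPM. By number of molecules it was mainly in Sertoli-like cells, which held 66.0% of its UMIs in the control against 72.8% in the Brca1 vKO library. Their level was 29.5 CPM (28.1 to 31.0) and 29.8 CPM (28.7 to 30.9). In the control, Gfra1/Ret-type cells, at 8.57 CPM, lay with myoid-like cells, at 9.59 CPM, and below Sertoli-like cells. In the Brca1 vKO library they reached 29.9 CPM (26.0 to 34.2), and overlapped the intervals of Sertoli-like and pericyte-like cells. Notch1 lies on chromosome 2 of GRCm38, at 26457903 to 26516663 on the minus strand, and the 250 bases before its RefSeq transcript start, at chr2:26503823-26504072 on that strand, are given for the same reason as those of Dll4. This window lies inside the annotated gene, whose longest form starts further upstream.
Notch1: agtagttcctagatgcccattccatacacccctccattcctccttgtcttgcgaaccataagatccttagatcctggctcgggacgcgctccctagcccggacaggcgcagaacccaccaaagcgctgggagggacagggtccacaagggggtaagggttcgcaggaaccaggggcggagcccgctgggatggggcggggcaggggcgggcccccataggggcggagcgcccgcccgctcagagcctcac

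Notch2 was the receptor with the least restricted pattern, and Sertoli-like cells again held most of its UMIs, 65.7% in the control against 76.3% in the Brca1 vKO library. It was at 116 CPM (113 to 119) and 107 CPM (105 to 109) in those cells, the first class in both libraries. In the control, the interval of pericyte-like cells, 88.3 CPM (64.9 to 117), overlapped that of Sertoli-like cells. Germ cells were lower, at 34.3 and 25.9 CPM in the Gfra1/Ret-type sub-cluster. Notch3 had its highest level in pericyte-like cells. Its level was 511 CPM (452 to 575) in control and 289 CPM (250 to 333) in Brca1 vKO pericyte-like cells, which was 13.7-fold and 2.81-fold above endothelial-like cells, the next class. Myoid-like cells held it at 28.1 CPM and stromal-like cells at 15.4 CPM in the control. Sertoli-like cells were last, with 12 and 33 Notch3 UMIs in all. By number of molecules, pericyte-like cells held 32.3% of Notch3 UMIs in the control against 16.6% in the Brca1 vKO library. Stromal-like cells held 26.2% and 29.9%, and myoid-like cells 25.8% and 31.8%.

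Hes1, the target that encodes a repressor of the basic helix-loop-helix kind and that many signals besides Notch can induce, was found in every named class. In the control it was highest in endothelial-like cells, at 781 CPM (724 to 842), and, of the named classes, lowest in KIT/STRA8-type cells, at 69.0 CPM (63.4 to 74.9). Sertoli-like cells, at 251 CPM (247 to 256), held 52.7% of its control UMIs. With a level of 228 CPM (225 to 230) they held 62.5% of its Brca1 vKO UMIs. Heyl, a Hey family repressor, was high in pericyte-like and myoid-like cells, at 212 and 174 CPM in the control library and at 181 and 161 CPM with Brca1 deleted in germ cells, and these neighbours overlapped in both libraries. Myoid-like cells held 50.9% and 53.1% of its UMIs, and Sertoli-like cells were far lower, at 9.72 and 11.1 CPM.

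Hey1 was rare, with its highest level in endothelial-like cells at 30.6 CPM (20.1 to 44.5) and 24.7 CPM (16.8 to 35.1). Its intervals there overlapped those of pericyte-like cells. Germ cells gave 53.0% of its control UMIs and 13.4% of its Brca1 vKO UMIs, while the level in Gfra1/Ret-type cells was 4.58 and 4.17 CPM. Hey2 had the fewest UMIs of the 4 targets. It was highest in pericyte-like cells, at 28.2 CPM (15.8 to 46.5) from 15 UMIs and 47.9 CPM (32.8 to 67.7) from 32 UMIs, which was 19.7-fold and 10.0-fold above the next class. Sertoli-like cells held 55.6% and 52.1% of its UMIs at about 1 CPM.

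Hey and Hes genes are known to be reached by RBPJ through the core TGGGAA. Of the 10 members, 7 had a promoter window in the RefSeq set, and the 250 bases before the start were searched on both strands for TGGGAA, which reads TTCCCA when the opposite strand holds it, and for the E-box CACGTG. Hey2 was the 1 member of 7 with TGGGAA, and 0 of 7 had CACGTG. Over 32851 promoter windows of the same length, 21.6% held TGGGAA and 6.02% held CACGTG. The Hey2 match lay on the opposite strand, with 201 bases between it and the start. It is printed in capitals below, in the window at chr10:30842784-30843033 on the minus strand of GRCm38.p6, whose last 18 bases lie in the 5′ UTR of another annotated Hey2 transcript. The match is a description of the letters only.
Hey2: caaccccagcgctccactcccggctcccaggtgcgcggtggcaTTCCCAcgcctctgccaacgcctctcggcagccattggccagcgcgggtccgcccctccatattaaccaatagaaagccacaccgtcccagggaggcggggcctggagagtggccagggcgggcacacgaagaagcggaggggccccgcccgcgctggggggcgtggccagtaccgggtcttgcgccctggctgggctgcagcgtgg

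**Figure D2:**
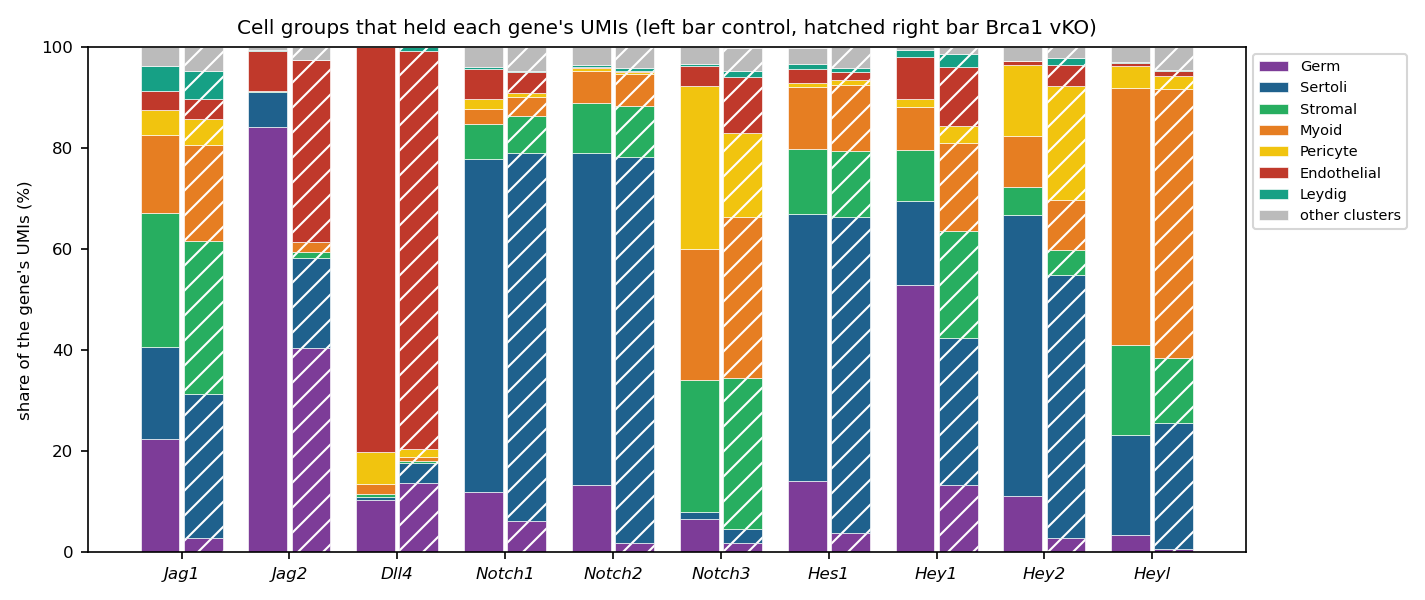
Share, in percent, of each gene's UMIs that came from each cell class, in the control library (left bar of each pair) and the Brca1 vKO library (right, hatched bar). Germ cells gave 84.1% of Jag2 UMIs in the control against 40.5% in the Brca1 vKO library, and endothelial-like cells gave 80.1% and 78.8% of Dll4 UMIs.

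Where germ cells were few, the Notch targets Hes1, Hey1 and Heyl of Sertoli-like cells were within 1.5-fold of their control level, and the rare Hey2 was lower. Hes1, the abundant target, was at 251 CPM in 2001 control cells and 228 CPM in 4138 Brca1 vKO cells, a ratio of 0.906 (0.887 to 0.925). Heyl was at 9.72 CPM (8.90 to 10.6) and 11.1 CPM (10.4 to 11.7), a ratio of 1.14 (1.02 to 1.26). Hey1 was at 0.983 and 0.771 CPM, a ratio of 0.785 (0.547 to 1.13), from 53 and 78 UMIs. Hey2 was at 1.11 and 0.732 CPM, a ratio of 0.658 (0.461 to 0.940), from 60 and 74 UMIs. Of these 4 targets, Hey2 alone was past 1.5-fold, at about 1 CPM in either library. The direction was not shared, since Hes1 and Hey2 were lower and Heyl higher in the Brca1 vKO cells.

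The ratio of Hes1 stayed below 1 in both Sertoli-like clusters, but not where Sertoli cells were taken by marker UMIs alone, without clusters, which gave 1.01 (0.969 to 1.06). It was 0.872 (0.842 to 0.904) in the cycling cluster, with 471 and 1069 cells, and 0.927 (0.903 to 0.952) in the non-cycling one. RNA from lysed cells can reach other droplets, which was not measured here. Sertoli-like cells held Dazl at 7.34 CPM in the control against 2.31 CPM in the Brca1 vKO library, and the source of these UMIs was not tested. The ratios were also taken over cells with no UMI of 5 germ cell markers. There Hes1 was at 0.903 and Hey2 at 0.515. The summed level of 10 immediate early genes, which respond to handling of tissue, was 5629 and 6708 CPM in Sertoli-like cells, a ratio of 1.19, and its part in the Hes1 values was not tested.

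Of the receptors and ligands that passed the filter in Sertoli-like cells, Jag2 alone was past 1.5-fold. Notch1 had a ratio of 1.01 from 1590 and 3011 UMIs and Notch2 of 0.923 (0.895 to 0.952), and Jag1 had 1.12 (0.951 to 1.32). Jag2 was at 0.482 CPM and 0.277 CPM, a ratio of 0.574 (0.325 to 1.02), from 26 and 28 UMIs. Germ cells held the largest share of Jag2 UMIs in both libraries, though its level was highest in endothelial-like cells. The germ cell markers summed in Sertoli-like cells were also lower, at 17.7 and 9.35 CPM. In Sertoli-like cells with no germ cell UMI the Jag2 ratio was 0.642 from 35 UMIs, under the filter. Cells with no marker UMI can still hold carried-over RNA, and the part of carried-over germ cell RNA in the Jag2 value was not tested. In the cycling cluster, with 3 and 12 UMIs, Jag2 was at 0.161 and 0.306 CPM, a ratio of 1.90, so that the direction was not shared by both clusters. Notch3 and Dll4 did not reach 50 UMIs.

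Of the 10 members, 8 passed the filter of 50 UMIs in Sertoli-like cells, and 2 of them, Jag2 and Hey2, were past 1.5-fold, both lower in the Brca1 vKO library. For comparison, 6.88% of the 15517 genes with at least 50 UMIs were past 1.5-fold, 3.09% higher and 3.78% lower. The median ratio of the 8 was 0.914, and that of all 15517 genes was 0.998. A lower ratio than that of Hes1 was found for 22.1% of all genes, and 3.43% of genes had a lower ratio than Hey2 and 1.93% a lower one than Jag2.

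Gdnf and Cyp26b1, which Notch signalling is known to lower in Sertoli cells, were both higher in Brca1 vKO Sertoli-like cells. Gdnf was at 39.7 and 51.6 CPM, a ratio of 1.30 (1.24 to 1.37), which was within 1.5-fold and exceeded by 6.47% of genes. Cyp26b1 was at 10.3 and 16.4 CPM, a ratio of 1.59 (1.44 to 1.76), exceeded by 2.27% of genes. Both ratios were above 1 in each Sertoli-like cluster, at 1.22 in cycling and 1.33 in non-cycling cells for Gdnf and for Cyp26b1 at 1.65 in the non-cycling one. Beside these values, the summed markers of stromal cells in Sertoli-like cells were at 45.2 and 62.7 CPM, which is 0.468% and 0.685% of the level in stromal-like cells, and their part in the result was not tested. Cyp26b1 was also higher in Brca1 vKO myoid-like cells, at 96.2 and 164 CPM, a ratio of 1.71 (1.57 to 1.85). It was far more abundant in stromal-like cells, at 323 and 367 CPM, and in Leydig-like cells, at 501 and 620 CPM. Gdnf had ratios of 1.97 in all germ cells, 1.38 (0.980 to 1.97) in stromal-like, 0.870 in myoid-like and 0.533 in Leydig-like cells. The germ cell value came from 81 and 42 UMIs, of which Gfra1/Ret-type cells held 4 and 9. KIT/STRA8-type cells held 3 and 0, and the low-depth germ sub-cluster 0 and 1. The others lay in the mixed sub-clusters, which held many marked doublets.

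**Figure D3:**
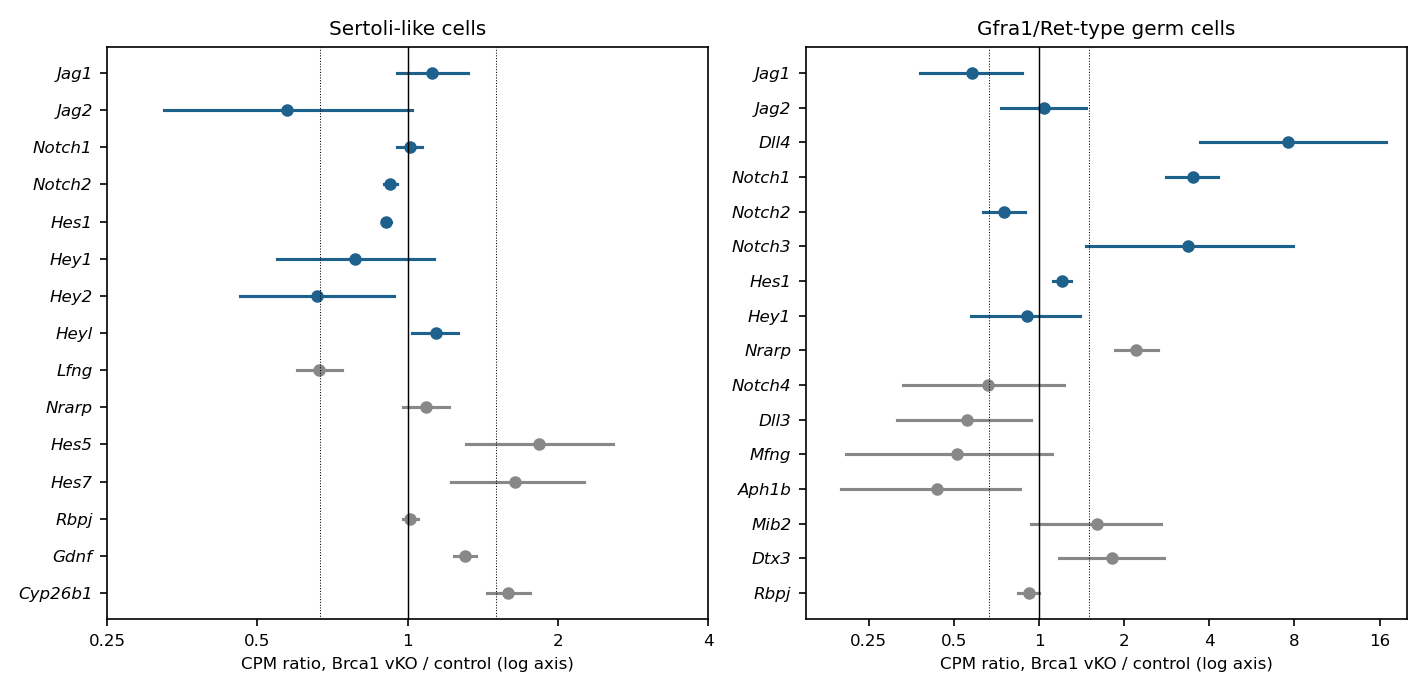
Ratio of Brca1 vKO to control CPM on a log axis, with exact 95% intervals, for members (blue) and for genes named from the wider Notch list, Gdnf and Cyp26b1 (grey), in Sertoli-like cells and in Gfra1/Ret-type cells, with dotted lines at 1.5-fold in each direction. In Sertoli-like cells Hes1 stood at 0.906 and Notch1 at 1.01, and in Gfra1/Ret-type cells Notch1 stood at 3.49 and Nrarp at 2.21.

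Among members that passed the filter, ratios ran from 0.582 to 3.49 in Gfra1/Ret-type cells and from 0.574 to 1.14 in Sertoli-like cells. The Gfra1/Ret-type sums were shallower, with 18785022 and 6960589 UMIs against 53927937 and 101147226 in Sertoli-like cells. In Gfra1/Ret-type cells, the sub-cluster that both libraries held in number, Notch1 was at 8.57 CPM (7.30 to 10.0) in the control against 29.9 CPM (26.0 to 34.2) in the Brca1 vKO library, with a ratio of 3.49 (2.82 to 4.31) from 161 and 208 UMIs. Dll4 was at 0.586 CPM (0.292 to 1.05) from 11 UMIs and 4.45 CPM (3.03 to 6.32) from 31 UMIs, a ratio of 7.61 (3.72 to 16.8), with too few UMIs for the filter. Jag1 was at 7.40 and 4.31 CPM, a ratio of 0.582 (0.379 to 0.869). Of the ligands and receptors that passed the filter, Notch1 was thus higher and Jag1 lower by at least 1.5-fold, while Jag2, at 6.60 and 6.90 CPM, had a ratio of 1.04 (0.733 to 1.47). Notch2 was at 0.753 (0.635 to 0.890) of its control level. Of the targets, Hes1 and Hey1 were within 1.5-fold, with Hes1 at 120 and 145 CPM, a ratio of 1.21 (1.12 to 1.30), and Hey1 at a ratio of 0.910 (0.576 to 1.40). The other 3 members were under the filter. Notch3 had 12 and 15 UMIs and a ratio of 3.37 (1.47 to 7.89), Heyl had 7 and 7 UMIs and a ratio of 2.70 (0.808 to 9.02), and Hey2 had 3 and 2 UMIs and a ratio of 1.80, whose interval held 1.

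Of the 10 members, 6 passed the filter in Gfra1/Ret-type cells, 1 of them (Notch1) higher and 1 (Jag1) lower by at least 1.5-fold. Among all 13329 genes, 23.5% were past that fold, 9.18% higher and 14.3% lower, so that being past it was far more common in these cells than in Sertoli-like cells. The median of the 6 ratios was 0.977 and that of all genes 0.976. The ratio of Notch1 was exceeded by 1.16% of the 13329 genes, and 9.88% of them had a lower ratio than Jag1.

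The Notch1 UMIs were spread over many cells. At least 1 Notch1 UMI was found in 107 of 402 control cells, or 26.6% (22.4 to 31.2), and in 102 of 181 Brca1 vKO cells, or 56.4% (48.8 to 63.7), and no cell held more than 7. In Leydig-like cells, where Notch1 was lowest in the Brca1 vKO library, these shares were 15.2% and 7.08%. Gfra1/Ret-type cells had medians of 43878.5 and 36098 UMIs and Leydig-like cells of 22624 and 19276. After each cell was thinned to 2000 UMIs, 2.74% (1.37 to 4.84) and 7.18% (3.88 to 12.0) of Gfra1/Ret-type cells had a Notch1 UMI, and no cell was left out for depth. Dll4 was found in 2.74% and 12.7% of cells, with 1 UMI per cell at most in the control and 5 in 1 Brca1 vKO cell. The shares of cells with Jag1 were 26.6% and 13.3%.

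The cells of the sub-cluster also differed in other respects between the libraries. Gfra1 was at 248 and 368 CPM, Kit at 10.8 and 37.5 CPM and Stra8 at 79.1 and 38.1 CPM. Of the cells below the median Gfra1 level, 242 CPM, 232 were control and 59 Brca1 vKO cells, with Notch1 at 5.07 and 32.3 CPM, a ratio of 6.37 (4.44 to 9.17). Of those at or above it, 170 and 122, Notch1 was at 13.8 and 28.7 CPM, a ratio of 2.08 (1.60 to 2.72). In the control, Notch1 was thus higher in the cells with more Gfra1, while in the Brca1 vKO library both sets of cells were alike within their intervals. Jag1 had ratios of 0.798 (0.407 to 1.44) and 0.471 (0.257 to 0.820) in the same cells. Dll4 had a ratio of 2.98 (0.463 to 15.3) in the former, from 5 and 3 UMIs, and of 7.49 (3.04 to 22.1) in the latter, from 6 and 28 UMIs.

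Markers of other cell types moved with these values. The 6 endothelial markers summed to 22.8 and 48.4 CPM in Gfra1/Ret-type cells, or 0.556% and 1.40% of the level in endothelial-like cells. Flt1 was at 11.5 and 29.6 CPM and Kdr at 1.76 and 9.19 CPM, while Pecam1 was at 7.24 and 7.04 CPM, Tie1 had 10 and 2 UMIs and Emcn 7 and 0. In cells with no UMI of these markers, 185 and 59 in number, Notch1 was at 7.70 and 26.9 CPM, a ratio of 3.50 (2.37 to 5.14), and Dll4 had a ratio of 8.05 (2.80 to 26.2). Neutrophil markers had 28 UMIs in the control against 1885 in the Brca1 vKO cells, of which 1 cell held 1748. In the 380 and 92 cells without any, Notch1 was at 8.49 and 31.9 CPM, a ratio of 3.75 (2.90 to 4.85). Sertoli cell markers were at 89.5 and 184 CPM, or 1.08% and 2.21% of the level in Sertoli-like cells, which themselves held Notch1 at 29.5 and 29.8 CPM and Dll4 below 1 CPM. Pericyte markers were at 2.02 and 9.77 CPM, of which Ndufa4l2 gave 0.639 and 8.62 CPM, and macrophage markers at 2.66 and 9.77 CPM. Myoid markers were at 22.0 and 40.5 CPM, a ratio of 1.84, and red blood cell markers at 268 and 40.2 CPM. The immediate early genes were at 469 and 899 CPM, a ratio of 1.92, and the part of handling in the germ cell values was not tested.

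**Figure D4:**
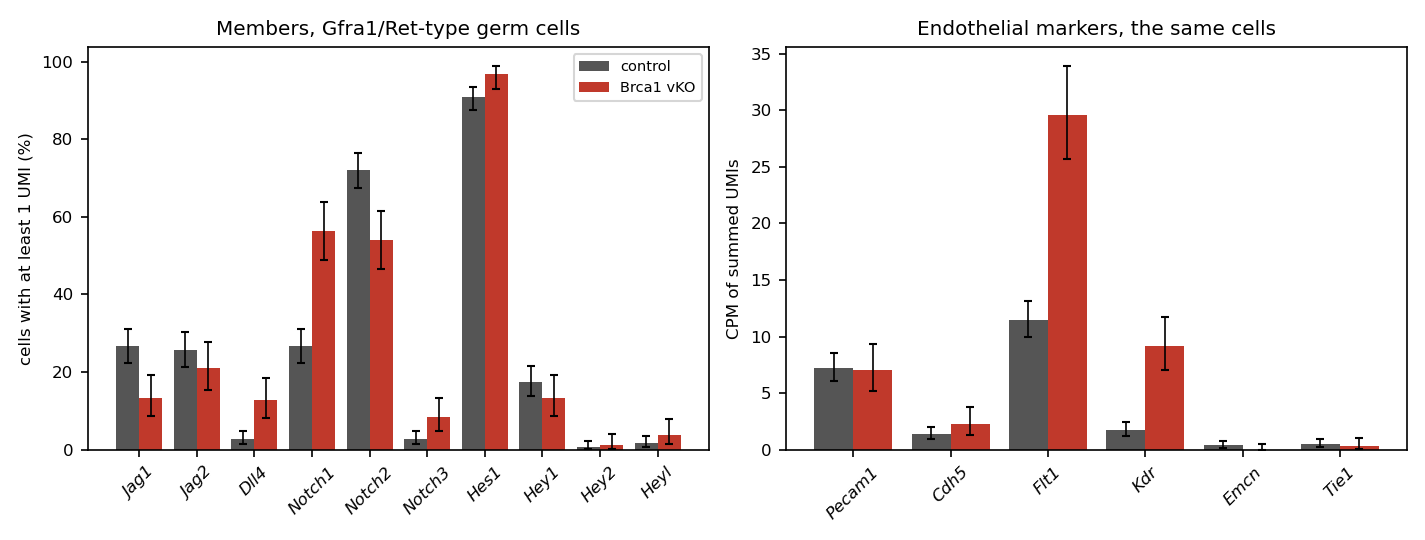
Gfra1/Ret-type cells of the control (grey) and Brca1 vKO (red) libraries. Left, percent of cells with at least 1 UMI of each of the 10 genes, with exact binomial 95% intervals; right, CPM of the 6 endothelial markers, with exact Poisson 95% intervals. Notch1 was found in 26.6% and 56.4% of cells, and Flt1 was at 11.5 and 29.6 CPM while Pecam1 was at 7.24 and 7.04 CPM.

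In the KIT/STRA8-type sub-cluster the Brca1 vKO values rest on 13 cells that carried more Gfra1, as given above. Hes1 was at 69.0 CPM (63.4 to 74.9) and 185 CPM (148 to 229), a ratio of 2.68 (2.11 to 3.37), and this was near the 145 CPM of Brca1 vKO Gfra1/Ret-type cells. Notch1 was at 5.71 and 13.1 CPM, a ratio of 2.29 (0.799 to 5.36), and Notch2 at 26.8 and 15.2 CPM, a ratio of 0.567 (0.225 to 1.19), from 6 and 7 Brca1 vKO UMIs. Jag2, the ligand highest in this sub-cluster among germ cells, was at 17.6 and 13.1 CPM, and its ratio of 0.741 (0.268 to 1.65) could not be told from 1 at this depth. Of the 5 members that passed the filter, 2 were higher and 1 lower by at least 1.5-fold, beside 31.9% of all 10571 genes. Summed Gfra1/Ret-type markers were at 26.2 and 305 CPM and immediate early genes at 258 and 814 CPM in these cells, and their part in the values was not tested.

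In the large interstitial and peritubular classes no member was past 1.5-fold when each class was taken whole at the main settings. In stromal-like cells, which surround the tubules, 7 members passed the filter and 0 were past 1.5-fold, where 5.44% of 13559 genes were. Hes1 was at 231 and 187 CPM, a ratio of 0.810 (0.775 to 0.847), and Notch2 had 0.841 (0.775 to 0.914). Heyl was at 32.5 CPM (29.6 to 35.6) and 22.4 CPM (20.7 to 24.4), a ratio of 0.691 (0.611 to 0.782). Its clusters differed, since Heyl was at 21.5 and 10.7 CPM in the non-cycling cluster, a ratio of 0.496 (0.413 to 0.595), and at 80.9 and 86.4 CPM in the cycling one, a ratio of 1.07 (0.897 to 1.27). Summed myoid markers were at 357 and 358 CPM in the former and at 2912 and 3241 CPM in the latter.

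In myoid-like cells, the contractile cells around the tubules, 7 members passed and 0 were past 1.5-fold, where 6.01% of 12227 genes were. Heyl, their leading target, was at 174 CPM (165 to 183) and 161 CPM (154 to 167), a ratio of 0.925 (0.865 to 0.990). Hes1 was at 407 and 327 CPM, a ratio of 0.802 (0.767 to 0.840), and Notch2 at 78.3 and 62.0 CPM, a ratio of 0.792 (0.714 to 0.879). Hes1 and Notch2 were thus lower in Brca1 vKO Sertoli-like, stromal-like and myoid-like cells, each by less than 1.5-fold, and Notch1 had ratios whose intervals held 1 in these 3 classes, at 1.01, 1.03 and 1.05.

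Vessel cells were few, and their values are less certain. In pericyte-like cells the 3 receptors were lower in the Brca1 vKO library. Notch3 was at 511 and 289 CPM, a ratio of 0.566 (0.468 to 0.683), Notch1 at 82.6 and 49.4 CPM, a ratio of 0.598 (0.369 to 0.961), and Notch2 at 88.3 and 55.4 CPM, a ratio of 0.628 (0.397 to 0.987). Without the cells marked as doublets Notch2 had a ratio of 0.735 (0.453 to 1.19) and was no longer past 1.5-fold. Jag1 had a ratio of 1.13 (0.802 to 1.60), Hes1, at 426 and 508 CPM, of 1.19 and Heyl of 0.854 (0.655 to 1.11), each within 1.5-fold. Of 6 members that passed, 3 were lower and 0 higher by at least 1.5-fold, beside 14.2% of 4438 genes. Under the filter, Hey2 had a ratio of 1.70 (0.895 to 3.38) from 15 and 32 UMIs. Hey1 had 1.44 (0.432 to 5.45) from 5 and 9 UMIs and Dll4 0.319 (0.0730 to 1.11) from 10 and 4, while Jag2 had none. The summed pericyte markers of the cluster were themselves at 4425 and 2910 CPM, a ratio of 0.658, while myoid markers were at 5931 and 11240 CPM, Sertoli cell markers at 197 and 728 CPM and immediate early genes at 11818 and 17544 CPM, and their part in the receptor values was not tested.

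In endothelial-like cells, Dll4 had a ratio of 1.13 (0.901 to 1.43), Jag2 of 1.34 (0.845 to 2.16) and Notch1 of 0.850 (0.678 to 1.07). Hes1 was at 781 CPM (724 to 842) and 478 CPM (441 to 518), a ratio of 0.612 (0.548 to 0.684), and Hey1, at 30.6 and 24.7 CPM, had a ratio of 0.808 (0.467 to 1.41). Notch3 was at 37.4 CPM (25.7 to 52.5) and 103 CPM (85.8 to 122), a ratio of 2.75 (1.86 to 4.16). That ratio depended on how cells were chosen and averaged, from 1.42 (1.10 to 1.84) with classes set by marker UMIs, which is under 1.5-fold, to 4.78 as the mean CPM of single cells. Of 9 members that passed, 1 was higher and 1 lower by at least 1.5-fold, beside 13.1% of 6625 genes. Summed endothelial markers were at 4101 and 3447 CPM, pericyte markers at 411 and 729 CPM, myoid markers at 236 and 776 CPM and germ cell markers at 136 and 3.19 CPM, and their part in these values was not tested.

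**Figure D5:**
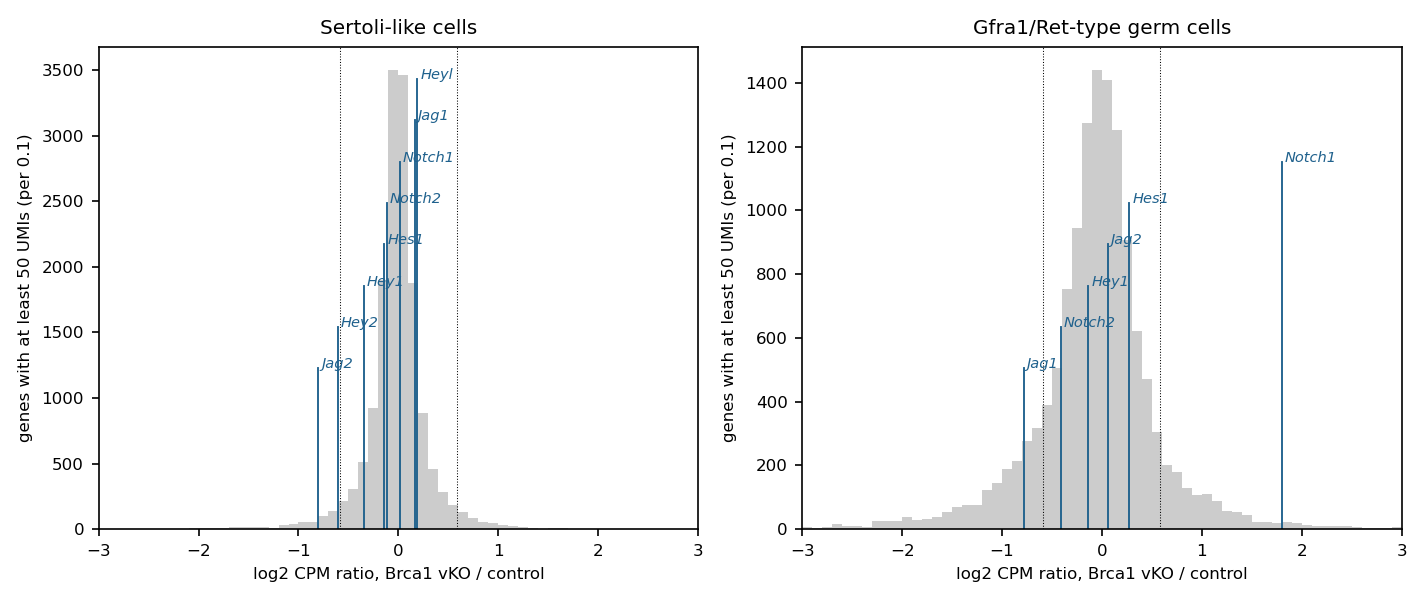
Histograms of log2 ratios of Brca1 vKO to control CPM over genes with at least 50 UMIs in Sertoli-like cells (left) and Gfra1/Ret-type cells (right), with members as blue lines whose height has no meaning and dotted lines at 1.5-fold. In Sertoli-like cells 6.88% of genes were past 1.5-fold and in Gfra1/Ret-type cells 23.5%, where the ratio of Notch1, 3.49, was exceeded by 1.16% of genes.

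The wider pathway was read from a list of 38 further genes, which process receptors and ligands, modify them or act in the nucleus. In Sertoli-like cells 36 of the 38 passed the filter, 2 were higher and 1 lower by at least 1.5-fold, beside 6.88% of all genes, and their median ratio was 1.02. Lfng, a fringe enzyme that adds sugar to Notch receptors and changes which ligand they favour, was at 12.6 and 8.38 CPM, a ratio of 0.665 (0.600 to 0.737). Of its relatives, Rfng was at 5.04 and 4.78 CPM and Mfng had 2 and 4 UMIs. The Hes family targets Hes5, at 0.872 and 1.59 CPM, a ratio of 1.83 (1.31 to 2.58), and Hes7, at 1.09 and 1.80 CPM, a ratio of 1.64 (1.22 to 2.25), were higher in the Brca1 vKO cells and rare in both. Rbpj was at 86.8 and 87.8 CPM, Notch4 at 1.13 and 0.989 CPM, and Dll1 had 2 and 1 UMIs.

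In Gfra1/Ret-type cells 31 of the 38 passed, 3 higher and 4 lower, with a median ratio of 0.917. These counts were near the share of all genes past 1.5-fold there, 23.5%, of which 9.18% were higher and 14.3% lower. Nrarp, which is induced by Notch signalling and dampens it, had 282 control UMIs and 231 Brca1 vKO UMIs, the latter at 33.2 CPM, and a ratio of 2.21 (1.85 to 2.64), exceeded by 3.22% of genes. Its ratio was 2.79 (2.10 to 3.68) in the cells below the median Gfra1 level and 1.76 (1.38 to 2.24) in the others. Dtx3, at 3.09 and 5.60 CPM, and Mib2, a ubiquitin ligase for ligands, at 2.24 and 3.59 CPM, were the other genes past 1.5-fold upward. The lower ones were the ligand Dll3 at 4.63 and 2.59 CPM, the gamma-secretase subunit Aph1b at 3.30 and 1.44 CPM, the fringe enzyme Mfng at 2.24 and 1.15 CPM and the receptor Notch4 at 2.82 and 1.87 CPM. Rbpj was at 108 and 99.3 CPM, and Lfng, Rfng and Dll1 had 24 and 14, 38 and 9, and 4 and 1 UMIs. In KIT/STRA8-type cells 24 passed and 5 were lower, each with at most 9 UMIs in the Brca1 vKO cells: Dll3, Psen2, Numbl, Hes5 and Nrarp. Of all genes in those cells, 31.9% were past 1.5-fold and 18.3% were lower.

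The other classes held few such genes. In stromal-like cells 33 of the 38 passed and Lfng, at 3.48 and 2.10 CPM, was the 1 past 1.5-fold, at a ratio of 0.602 (0.402 to 0.902), the same direction as in Sertoli-like cells. Among all genes of these cells 5.44% were past it. In myoid-like cells 30 passed and 0 were past it, beside 6.01% of all genes. In pericyte-like cells 15 passed and 2 were past it, beside 14.2% of all genes, with the nuclear corepressor Spen higher, at 39.4 and 59.9 CPM, and Numb, an inhibitor of Notch, lower, at 115 and 67.4 CPM. In endothelial-like cells Mfng and Notch4, both endothelial genes here, were at 126 and 104 CPM and at 34.0 and 43.0 CPM. Rbpj lay between 0.821 and 1.12 of its control level in all 7 classes compared.

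For each member, the 2 genes whose levels followed it most closely were sought, by the Pearson correlation of log2(CPM + 10) over 14 points, 7 classes in 2 libraries, which share libraries and marker content and are not independent. Notch3 was followed by Pdgfrb (r = 0.992), a receptor of pericytes, and Colec11 (0.985). Heyl was followed by Tagln (0.977) and Lmod1 (0.972), both genes of smooth muscle. Dll4 was followed by Gimap6 (0.989) and Cracr2b (0.988), Hey1 by Cd93 (0.981), an endothelial surface protein, and Adora2a (0.978), and Notch1 by Stim2 (0.967) and Gimap9 (0.955). Jag2 was followed by Ablim3 (0.996) and Tspan13 (0.993), and Hey2 by Aatk (0.993) and Ppp1r1a (0.991). Jag1 was followed by Gm4876 (0.986) and Scly (0.964). The broad genes had the weakest companions, with Clec2d (0.918) and Filip1 (0.917) for Hes1 and Mtx3 (0.918) and BC037032 (0.915) for Notch2. With log2(CPM + 1) in place of log2(CPM + 10), 9 of the 20 pairs stayed, and both companions changed for Dll4 (Bach1 and Ptpn18), Heyl (4930523C07Rik and Gm15737), Hey2 (Gm13861 and Map3k7cl) and Notch2 (Scara3 and Dnajb4).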

How the data were processed

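The authors aligned droplet 3′ scRNA-seq reads to mm10 and counted UMIs with Cell Ranger 6.0.2. What was deposited are raw counts per gene and barcode, not normalized. The submitters' notes also name R 4.2.3 and Seurat 4.3.0.1 for later steps, whose cell labels were not used here. Groups came from the labelled genotype.

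Barcodes with fewer than 750 genes or over 10% mitochondrial UMIs were dropped, and the rest log-normalized. From 2000 variable genes, without the 10 members and the wider list of 38, 20 components were corrected for the library by Harmony's algorithm (written out in numpy 2.4.6, theta 2) and clustered by the Louvain method (igraph 0.11.9, 20 neighbours, resolution 0.25, germ cells 0.2). A cluster was named from listed markers where at least 3 were detected, the mean standardized score was at least 0.5, it led the next class by 0.25, and its 10 leading genes did not favour another class. The margin of 0.25 was chosen after seeing the data. Class names are rebuilt, so they may differ from the study's. The cycling Sertoli-like and stromal-like clusters had no class marker among those 10. Clusters of mixed markers stayed unnamed, and within germ cells 2 mixed sub-clusters were kept in the germ total only. Germ cells of low depth (343 control and 50 Brca1 vKO cells, with medians of 3209 and 3502.5 UMIs) also counted in that total. Scrublet (scanpy 1.11.5) marked doublets, which were removed only in alternatives.

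UMIs were summed per class and library. CPM have exact Poisson intervals, shares exact Clopper-Pearson intervals and ratios exact conditional intervals (scipy 1.17.1, 95%), covering counting error only. Cells are not replicates, and each genotype had 1 library, so no test was made. All members were named in each class; genes of the wider list were named where past 1.5-fold, with Lfng, Mfng, Rfng, Rbpj, Notch4 and Dll1 always named, and Gdnf and Cyp26b1 in Sertoli-like cells. Of the wider list, 1 gene is not reported here. The members and lists were chosen with earlier results of these data known. TMM factors (edgeR 4.0.16 in R 4.3.3) were among the alternatives. The procedure was tested on simulated data. Coordinates are those of GRCm38, and promoter windows are from RefSeq (GRCm38.p6). Windows of Hes1, Hey1 and Heyl were not used here.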

Additional observations from a re-analysis of the deposited data

Results flagged for a closer look

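For 3 members the ratio of Brca1 vKO to control CPM was past 1.5-fold in opposite directions in different classes, with intervals that left out 1. The difference between the classes was not tested, since each genotype had 1 library. Among all genes, 23.5% were past 1.5-fold in Gfra1/Ret-type, 31.9% in KIT/STRA8-type, 14.2% in pericyte-like and 13.1% in endothelial-like cells. How many of all genes were past it in opposite directions was not counted. Notch1 had a ratio of 3.49 in Gfra1/Ret-type cells and 0.598 in pericyte-like cells. Notch3 had 2.75 in endothelial-like and 0.566 in pericyte-like cells, 2 classes that touch in the vessel wall, where the summed pericyte markers had ratios of 1.77 and 0.658. Hes1 had 2.68 in KIT/STRA8-type cells, from 13 Brca1 vKO cells, and 0.612 in endothelial-like cells.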

How the results depend on the processing

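The ratio of Hes1 in Sertoli-like cells, 0.906, became 0.829 with cells thinned to 2000 UMIs, 0.871 with at most 5% mitochondrial UMIs, 0.932 with doublets removed before clustering and 0.929 without Harmony. It was 0.872 and 0.927 in cycling and non-cycling clusters and 1.01 where classes were set by marker UMIs without clusters, so that its place below 1 depended on how Sertoli-like cells were chosen. Hey1, 0.785, became 1.93 when thinned, from 10 UMIs, and 0.427 by marker UMIs. Hey2, 0.658, became 0.965 when thinned, from 6 UMIs. Heyl, 1.14, became 1.0 with at most 5% mitochondrial UMIs. Genes past 1.5-fold in Sertoli-like cells, 6.88%, became 14.9% with a minimum of 10 UMIs and 31.1% with none. When thinned, few pairs of member and class kept 50 UMIs, and those past 1.5-fold fell to 1 in all, and to 1 among ligands and receptors. Thinning also turned Jag1 in Gfra1/Ret-type cells to 1.11 (6 UMIs), Notch1 in pericyte-like cells to 1.76 (14 UMIs) and Notch1 and Hes1 in KIT/STRA8-type cells to 0, and Jag2 in Sertoli-like cells was at 1.90 in the cycling cluster. The limit of 5% gave no KIT/STRA8-type sub-cluster. Notch1 in Gfra1/Ret-type cells lay between 2.08 and 6.37 over 14 settings and Dll4 between 2.22 and 9.63. Notch3 in endothelial-like cells lay between 1.42 and 4.78, and Notch2 in pericyte-like cells between 0.624 and 0.898, both with values inside 1.5-fold. Heyl in stromal-like cells, 0.691 and so within 1.5-fold, became 0.497 at a resolution of 0.5, which is past it. The causes were not tested. Splits by cell cycle, Gfra1 level and endothelial, germ cell or neutrophil UMIs, and the removal of marked doublets from each class or of mixed germ sub-clusters, were chosen after seeing the data. No paired analysis was possible because each genotype had 1 library and no test was made.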

Other observations

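Leydig-like cells, the androgen-producing cells between the tubules, were not among the classes compared above. Hes1 was at 267 CPM (237 to 300) in 46 control cells and 123 CPM (110 to 137) in 113 Brca1 vKO cells, a ratio of 0.460 (0.391 to 0.543). Jag1 was at 54.5 and 34.9 CPM, a ratio of 0.641 (0.455 to 0.908), and Notch2 at 40.6 and 31.3 CPM, a ratio of 0.771 (0.526 to 1.14). Jag2 and Dll4 had at most 2 UMIs in either library. Summed Sertoli cell markers in these cells were at 1525 and 1040 CPM and stromal markers at 936 and 1769 CPM, and their part in the values was not tested.

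In the germ cells as a whole, mixed sub-clusters included, Notch1 was at 8.17 and 28.1 CPM, a ratio of 3.44 (2.90 to 4.08), Dll4 at 0.457 and 3.80 CPM, a ratio of 8.31 (4.48 to 16.1), and Hes1 at 104 and 154 CPM, a ratio of 1.48 (1.39 to 1.57). The make-up of this total differed, with 402 of 1087 control and 181 of 275 Brca1 vKO cells of the Gfra1/Ret-type, and its part was not tested. Hes1 had a ratio of 1.21 within Gfra1/Ret-type cells, and of 1.41 (1.31 to 1.51) in the total without marked doublets.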
